A study of Arabidopsis thaliana with 6 samples.

Results

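In *Arabidopsis thaliana* inflorescences of the *bp er* line and its *bp er fil-10* derivative, 31 transcripts had a higher signal on the replicate 3 array than on the replicate 1 and 2 arrays of the same genotype, by at least 2-fold and in both genotypes. They were chosen by these values: signals under 100 were raised to 100 and converted to log2, the mean of replicates 1 and 2 was subtracted from replicate 3 within each genotype, and a probe set was taken when this difference, called the replicate 3 shift here, was 1 or more in each genotype and the probe set stood for 1 annotated gene. The 31 are probe sets of 31 genes, out of 13513 probe sets with 1 annotated gene and 22746 probe sets in all, Affymetrix controls left out. *SWEET9*, *TPS11*, *TPS24*, *UGT74C1* and *AOP3* were left out by the rule, and 0 of these 5 reached a shift of 1 in both genotypes. Because the shifts chose the transcripts, they are given below as a description with no test.

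The study compared *Arabidopsis thaliana* plants mutant for the homeobox gene *BREVIPEDICELLUS* and the receptor kinase gene *ERECTA* (*bp er*) with a line that carries in addition a mutation of the YABBY gene *FILAMENTOUS FLOWER* (*bp er fil-10*), to find genes that act downstream of *FIL* in shaping the inflorescence. Both mutations of the parent are thus shared by all samples, and no wild type was included. The *fil-10* line came from a chemical mutagenesis screen of the *bp er* parent, so it stands for 1 allele. Inflorescences with floral stages 1 to 13 from plants grown at 22 °C with 16 h of light and 8 h of dark were the source of RNA, and 3 samples per genotype, labelled biological replicates 1 to 3, were hybridized to Affymetrix ATH1 arrays. The labels do not say what samples with the same replicate number share, such as a planting or a harvest, so whether the p-values below cover separate plantings is not known. The measurement is the MAS signal, a linear hybridization intensity for each probe set, and the authors scaled every array to a target of 500. *FIL*, *BP* and 10 floral organ identity genes have no named probe set here, so genotype and tissue were not checked against them. Of 10 late pollen genes with enough signal for testing, 3 read 1000 or more on all 6 arrays, 2 fell under 100 on at least 1 array, and signals ranged from 80.7 to 12433.

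An inflorescence sample here mixes buds of floral stages 1 to 13 with stem and pedicel tissue. In the last stages before a flower opens, petals and stamen filaments elongate, pollen matures, and jasmonate, a lipid-derived hormone, controls stamen maturation. Hormones are held in balance partly by enzymes that attach small groups to them, and the surface and walls of growing organs are built from waxes, mannans, pectins and, in some cells, lignin. In a bulk sample such as these, fewer cells of a type and less RNA per cell cannot be told apart.

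The replicate 3 shift was shared between the genotypes. Of all 22746 probe sets, 265 (1.17%) had a shift of 1 or more in *bp er*, 267 (1.17%) had one in *bp er fil-10* and 84 had it in both, which is 31.7% of the first list and 31.5% of the second. The opposite pairing, a shift of 1 or more in *bp er* and of −1 or less in *bp er fil-10*, occurred for 4 probe sets, and the reverse for 0. Shifts of −1 or less in both genotypes were more numerous, with 193 probe sets. Over the 14456 probe sets that reached 100 on 3 or more of the 6 arrays, called the probe sets kept here, the shifts of the genotypes correlated at r = 0.44 (Pearson, across probe sets of the same 6 arrays, which are not independent replicates). Shifts as a whole centred near 0, with medians over the probe sets kept of −0.02 (*bp er*) and 0.02 (*bp er fil-10*).

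**Figure D1:**
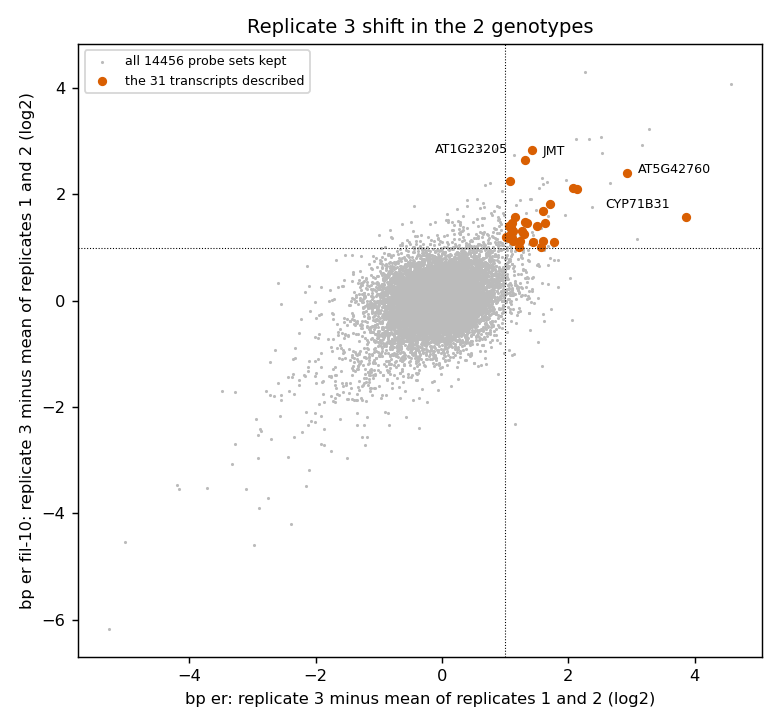
Replicate 3 shift in *bp er* (x axis) against that in *bp er fil-10* (y axis), both on the log2 scale, for the 14456 probe sets kept (grey) and the 31 transcripts (orange), with dotted lines at the threshold of 1. The grey cloud is drawn out along the diagonal (r = 0.44), *CYP71B31* lies farthest right among the 31 at 3.87 and *JMT* highest at 2.84.

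Among the 31 the shift ranged up to 3.87 (*bp er*) and 2.84 (*bp er fil-10*), with medians of 1.32 and 1.40. The smaller of the 2 shifts was 1.5 or more for 6 transcripts and under 1.2 for 17. The shift was larger in *bp er fil-10* for 19 and larger in *bp er* for 12. The median signal of the 31 was 378 and 318 on *bp er* replicates 1 and 2 and 1079 on replicate 3, and 195 and 197 on *bp er fil-10* replicates 1 and 2 and 715 on replicate 3. They are transcripts of middling signal by the mean over all 6 arrays, which includes the replicate 3 arrays that the rule made high. Their median mean signal was 463, against 462 for all probe sets kept, and ranged from 140 to 2099. In 23 of them all 6 arrays read at least 100, all 31 passed the minimum for testing, and every probe set is of the kind that Affymetrix marks as specific to 1 transcript. On the chromosomes they were spread out: 9 lie on chromosome 1, 4 on 2, 9 on 3, 3 on 4 and 6 on 5, with 0 from the plastid genome, and no pair of them lies within 20 protein-coding genes of each other.

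**Figure D2:**
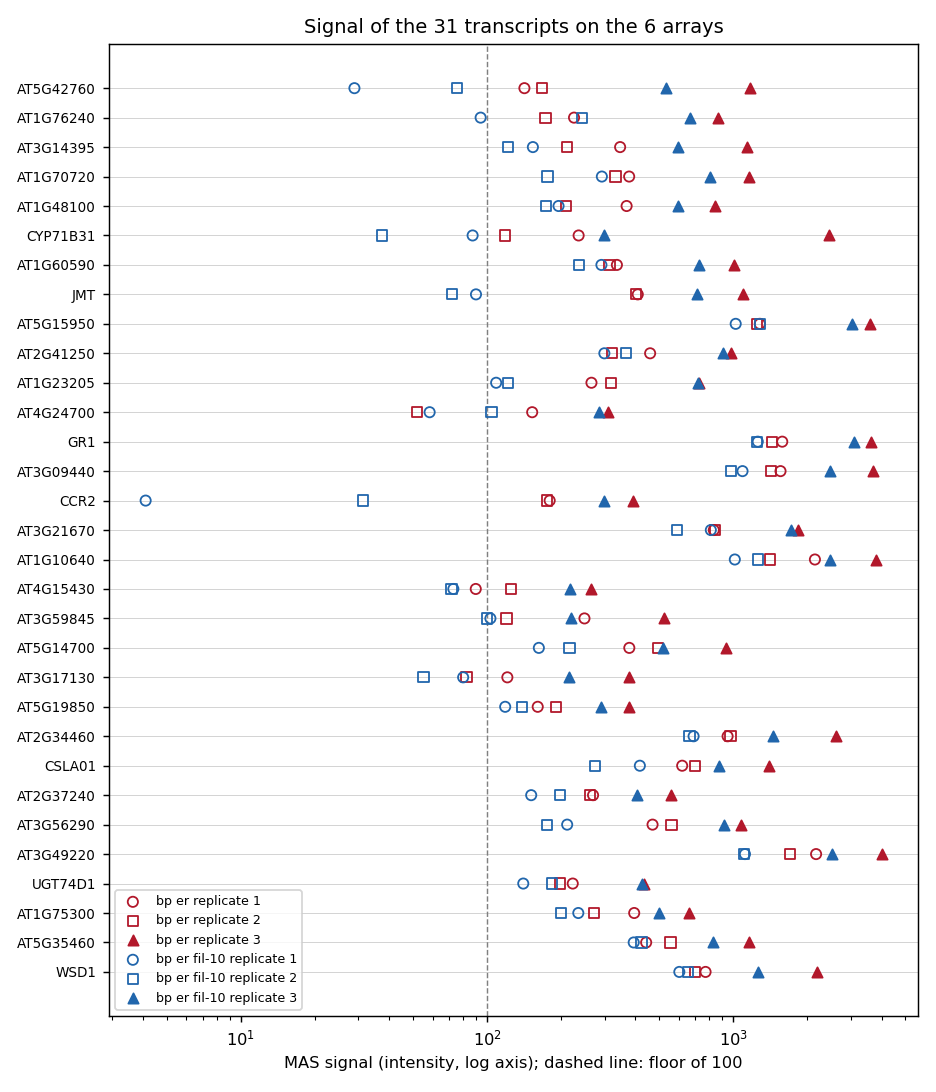
MAS signal (intensity, log axis) of each of the 31 transcripts on the 6 arrays, ordered by the smaller shift; red is *bp er*, blue is *bp er fil-10*, filled triangles are replicate 3, and the dashed line is the floor of 100. In all 31 rows the *bp er* replicate 3 array is the highest, and in 30 the *bp er fil-10* replicate 3 array is second.

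Of the 31 genes, 11 have a role in the gene table or the annotation used here. Some of these roles came from the study's lists of genes changed in *bp er fil-10*. The others are known here by locus only, so the groups below do not show which kinds of gene prevail among the 31. Enzymes that conjugate hormones come first. *JMT* (AT1G19640) encodes the methyltransferase that turns jasmonic acid into methyl jasmonate. Its signal was 409 and 403 on *bp er* replicates 1 and 2 and 1091 on replicate 3, and *bp er fil-10* had 90, 71.8 and 715 in the same order. The 2 low *bp er fil-10* arrays lay under 100, so its shift of 2.84 in that genotype, against 1.43 in *bp er*, is measured from the floor. The *bp er fil-10* replicate 3 array nevertheless read higher than *bp er* replicates 1 and 2. *UGT74D1* (AT2G31750), a glucosyltransferase that acts on auxins, had 223, 197 and 435 in *bp er* and 140, 184 and 426 in *bp er fil-10*. On replicate 3 its genotypes were nearly level, and the shifts were 1.05 and 1.41.

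Among the genes with a role, 2 are placed in the lignin branch of phenylpropanoid metabolism. *CCR2* (AT1G80820) encodes a cinnamoyl-CoA reductase, which turns hydroxycinnamoyl-CoA esters into the aldehydes that monolignols are made from. It had signals of 180, 175 and 393 in *bp er* and of 4.1, 31.2 and 298 in *bp er fil-10*. *AT5G14700* is annotated in the same class of reductases, and its signals were 378, 496 and 935 in *bp er* and 162, 216 and 516 in *bp er fil-10*. Like most of the 31, both genes had *bp er* replicate 3 highest, then *bp er fil-10* replicate 3, with *bp er fil-10* replicates 1 and 2 lowest. The shifts were 1.15 and 1.57 for *CCR2* and 1.11 and 1.46 for *AT5G14700*, *bp er* first, and for *CCR2* in *bp er fil-10* the shift starts from the floor.

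In the other oxidoreductases the *bp er* replicate 3 array was again the highest. *CYP71B31* (AT3G53300), a cytochrome P450 that oxidizes the volatile linalool in flowers, had 235, 118 and 2441 in *bp er* and 87.3, 37.5 and 298 in *bp er fil-10*. Its shift of 3.87 in *bp er*, 14.6-fold over the replicate 1 and 2 mean with the floor applied, was the highest of the 31, while that in *bp er fil-10* was 1.57, again from the floor. *GR1* (AT3G24170), the reductase that regenerates glutathione from its disulfide, was among the brighter transcripts, with 1580, 1439 and 3618 in *bp er* and 1257, 1249 and 3104.5 in *bp er fil-10*. In *GR1* the replicate 1 and 2 arrays of a genotype lay close together and the shifts were nearly equal, at 1.26 and 1.31. *AT3G59845*, annotated as a zinc-binding dehydrogenase, had 249, 120 and 525 in *bp er* and 103, 100 and 220 in *bp er fil-10*. Its 2 lower *bp er* arrays differed by more than 2-fold, so its shift of 1.60 in that genotype depends on which is taken as the reference.

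In the wall and surface group, *CSLA01* (AT4G16590) belongs to the cellulose synthase-like A enzymes, which make mannans of the cell wall, and *WSD1* (AT5G37300) encodes a wax ester synthase of the plant cuticle. *CSLA01* had 620, 700.4 and 1402.5 in *bp er* and 417, 275 and 876.5 in *bp er fil-10*. *WSD1* had 771, 700 and 2180 in *bp er* and 604, 657 and 1263 in *bp er fil-10*. The shift of *WSD1* was larger in *bp er* (1.57) than in *bp er fil-10* (1.00), and that of *CSLA01* the reverse (1.09 and 1.37). *AT3G21670*, the NRT1/PTR family gene *NPF6.4* of a family that carries nitrate and other small solutes across membranes, had 833, 841 and 1836 in *bp er* and 810, 589 and 1714 in *bp er fil-10*. *AT5G42760*, annotated as a leucine carboxyl methyltransferase in the class of O-methyl transferases, had 142, 167 and 1172 in *bp er* and 28.9, 75.7 and 532 in *bp er fil-10*. With shifts of 2.93 and 2.41 it had the largest smaller shift of the 31.

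The 20 genes with no role in the sources used here had shifts of 1.02 to 2.13 (*bp er*) and 1.01 to 2.65 (*bp er fil-10*). *AT1G76240* and *AT3G14395* led them by the smaller of the 2 shifts. *AT1G76240* had 225, 173 and 865 in *bp er* and 94.1, 242 and 666 in *bp er fil-10*, and *AT3G14395* had 347, 211 and 1136 in *bp er* and 153, 122 and 595 in *bp er fil-10*. In each of the 2 genes the folds over the replicate 1 and 2 mean were nearly equal in the genotypes, at 4.39 and 4.28 and at 4.19 and 4.35. *AT1G70720* (3.27-fold and 3.53-fold), *AT1G48100* (3.03-fold and 3.23-fold) and *AT1G60590* (3.10-fold and 2.76-fold) came next by that measure. *AT1G23205* and *AT3G56290* stood out by a shift in *bp er fil-10* more than 1 larger than in *bp er*. *AT1G23205* had 265, 318 and 726 in *bp er* and 109, 121 and 720 in *bp er fil-10*, and *AT3G56290* had 470, 561 and 1079 in *bp er* and 211, 175 and 920 in *bp er fil-10*. In both, the genotypes lay apart on replicates 1 and 2 and closer together on replicate 3, by −0.01 in *AT1G23205* and −0.23 in *AT3G56290* on the log2 scale.

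The brightest of the 31 were *AT3G49220*, *AT1G10640*, *GR1*, *AT3G09440* and *AT5G15950*. *AT3G49220* had 2169, 1697 and 4004.5 in *bp er* and 1115, 1104 and 2506.5 in *bp er fil-10*. *AT5G15950* had 1281, 1245 and 3582 in *bp er* and 1022.5, 1284.5 and 3027 in *bp er fil-10*. These bright transcripts had some of the most even shifts, 1.06 and 1.18 in *AT3G49220* and 1.5 and 1.40 in *AT5G15950*, far above any floor. At the threshold, *AT1G75300*, *AT5G35460* and *WSD1* lay just inside, with smaller shifts of 1.02, 1.01 and 1.00. *AT5G55620*, *AT2G19650* and *AT5G12110* lay just outside, with 0.995, 0.98 and 0.98. The list therefore ends within a continuous range of values.

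The difference between the genotypes was not itself part of the rule. The mean of 3 arrays of a genotype and the shift of its replicate 3 array are different contrasts of the same 3 signals. Over all probe sets kept, the mean shift and the genotype difference correlated at r = −0.37 (Pearson). A choice by shift is therefore not neutral for the genotype difference. In *bp er fil-10* all 31 transcripts had a lower mean of log2 signals than in *bp er*, against 43.6% of the 14456 probe sets kept. The median difference was −0.57 on the log2 scale over the 31 and 0.06 over all probe sets kept, and with signals under 100 raised to 100 it was −0.56, with a range of −1.55 to −0.17. Counts of overlapping arrays are in part fixed by the rule, which put replicate 3 above replicates 1 and 2, and are given as a description. All *bp er fil-10* arrays lay below all *bp er* arrays in 0 of the 31 and in 9.13% of all probe sets kept. In 30 of the 31 the *bp er fil-10* replicate 3 array lay above *bp er* replicates 1 and 2. Among replicates 1 and 2 alone, both *bp er fil-10* arrays lay below both *bp er* arrays in 27 of 31, against 25.0% of all probe sets kept. With both replicate 3 arrays left out, all 31 stayed lower in *bp er fil-10*, with a median of −0.59, against 45.9% of all probe sets kept. The replicate 1 and 2 values used there are those from which the rule measured the shifts. Leaving out 1 array changes the weight of replicate 3 in 1 genotype only. The count was 21 of 31 without *bp er* replicate 3 (median −0.11), 26 without *bp er fil-10* replicate 1 (−0.37) and 30 without *bp er fil-10* replicate 2 (−0.30). It stayed at 31 without *bp er* replicate 1 (−0.74), *bp er* replicate 2 (−0.85) or *bp er fil-10* replicate 3 (−1.0). Over all probe sets kept, 42.5% to 45.3% were lower with 1 array left out.

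Compared within a replicate number, with signals under 100 raised to 100, 30 of 31 transcripts were lower in *bp er fil-10* in the replicate 1 pair and 1 was level at the floor, against 47.6% of all probe sets kept. In the replicate 2 pair 26 were lower, 4 higher and 1 level at the floor (45.9% of all were lower), and in the replicate 3 pair 31 were lower (43.8% of all). The median differences of the 31 were −0.62, −0.41 and −0.49 in pairs 1, 2 and 3. In 25 of the 31 all 3 pairs had the same direction, against 18.3% of all probe sets kept. The 4 that were higher in *bp er fil-10* in the replicate 2 pair were *AT1G76240* (0.49), *AT2G41250* (0.18), *AT4G24700* (0.06) and *AT5G15950* (0.04). *AT3G09440* had an even gap, at −0.51, −0.54 and −0.58. The gap of *JMT* was −2.03 and −2.01 in pairs 1 and 2 and −0.61 in pair 3, and that of *CYP71B31* was −1.23, −0.24 and −3.03.

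**Figure D3:**
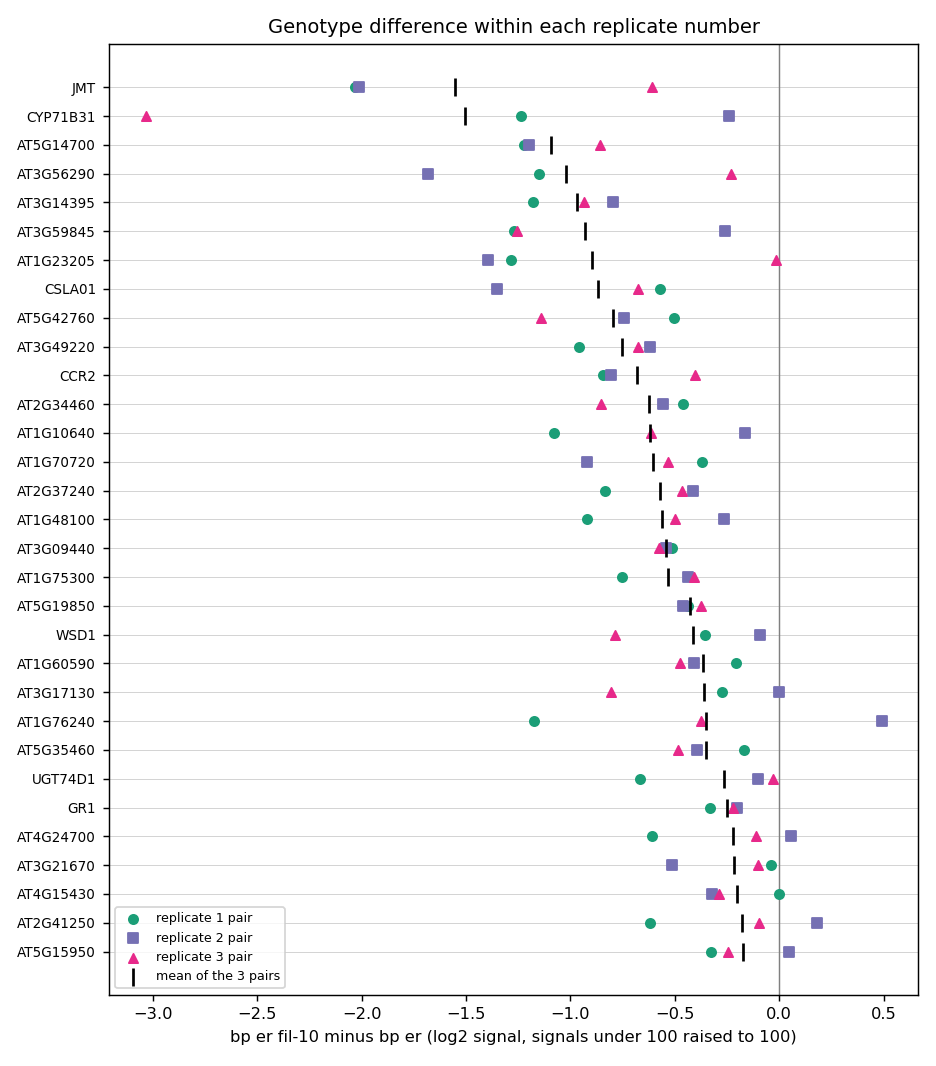
Difference *bp er fil-10* minus *bp er* in log2 signal, with signals under 100 raised to 100, for each of the 31 transcripts in the replicate 1 pair (circles), replicate 2 pair (squares) and replicate 3 pair (triangles), with the mean of the 3 as a black bar. All 31 bars lie left of 0, between −1.55 and −0.17, and 4 squares lie right of it.

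The genotypes were tested with limma over all 14456 probe sets kept, 2-sided, with Benjamini-Hochberg adjustment and a threshold of 0.05. Limma called 0 of the 31 (lowest adjusted p = 0.279, for *AT5G14700*), and 1 of the 31 was lower at an unadjusted p under 0.05, against 7.06% of all probe sets kept. Over all probe sets it called 1, or 0.00692%. The spread within a genotype, which the rule made large for these transcripts by its shift, enters this test, so the count of calls is not independent of the choice of transcripts. Without *bp er fil-10* replicate 3 limma called 1 of the 31, *JMT*, against 0.851% of all probe sets kept in either direction and 0.567% lower. With that array left out, the *bp er* replicate 3 array, high by the rule, still counts, so this call is not independent of the choice. The replicate number was then added to the fit as a block, which removes a shift common to both genotypes. With the block limma called 7 of the 31, all lower in *bp er fil-10*, against 3.74% of all probe sets kept called in either direction and 2.13% called lower, and 19 of the 31 were lower at an unadjusted p under 0.05, against 9.64%. The residual of the blocked fit is the disagreement between the genotypes' replicate differences, to which the rule's 2 shifts also belong, so these p-values are not independent of the choice either. With signals raised to 100 the blocked fit called 5 of the 31, all of them among the 7, against 3.67% of all probe sets kept in either direction, 2.06% lower and 1.61% higher, and 9.84% lower at an unadjusted p under 0.05. Without both replicate 3 arrays limma called 7, all lower, of which 4 were among the 7 of the blocked fit. That fit called 9.59% of all probe sets kept, 4.81% lower and 4.77% higher. It compares the replicate 1 and 2 values from which the rule measured the shifts, so it is not separate from the choice. Overlaps between fits were counted for the 31 only, so no share over all probe sets kept stands beside them.

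The 4 called both in the blocked fit and without the replicate 3 arrays were *JMT*, *AT5G14700*, *CSLA01* and *AT3G49220*. Those 2 fits share the replicate 1 and 2 arrays and neither is independent of the choice, so their overlap is not separate support. *AT5G14700* of the cinnamoyl-CoA reductase class differed by −1.09 (SE 0.46, n = 3 arrays per genotype; limma adjusted p = 0.279, and 0.0189 with the replicate block). *CSLA01* differed by −0.87 (SE 0.44; adjusted p = 0.355, and 0.0446 with the block) and *AT3G49220* by −0.75 (SE 0.39; adjusted p = 0.360, and 0.0298 with the block). In all 3 genes each of the same-numbered pairs had a lower signal in *bp er fil-10*. *JMT*, with a mean signal of 634 ± 396 (SD, n = 3) in *bp er* against 292 ± 366 (SD, n = 3) in the triple mutant, differed by −1.76 (SE 0.81; limma adjusted p = 0.315, and 0.0268 with the block). With signals under 100 raised to 100 its difference was −1.55 (limma adjusted p = 0.0245 with the block) and the log2 ratio of its mean signals was −1.06. *AT3G14395* passed with the block as well (adjusted p = 0.0300) but not on replicates 1 and 2 alone (0.0726), with a difference of −0.97 (SE 0.71). It differed by −1.18, −0.80 and −0.93 in the pairs.

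*AT5G42760* and *CYP71B31* passed with the block only on signals that were not raised (adjusted p = 0.0335 and 0.0174, and 0.0792 and 0.0824 with signals under 100 raised to 100). Their *bp er fil-10* replicates 1 and 2 all lay under 100, the floor used for the shifts, and with these raised to 100 the differences were −0.80 and −1.5. *CCR2*, whose log2 difference of −2.78 (SE 1.31) rests on signals of 4.1 and 31.2, fell short with the block (adjusted p = 0.10), and its difference was −0.68 with signals raised. On replicates 1 and 2 alone, *AT1G23205*, *AT3G09440* and *AT3G56290* passed besides the 4 (adjusted p = 0.0152, 0.0471 and 0.00339). That fit has 2 arrays per genotype. At the small end, *AT5G15950* differed by −0.17 (SE 0.49), *AT2G41250* by −0.18 (SE 0.49), *AT3G21670* by −0.22 (SE 0.43), *GR1* by −0.25 (SE 0.44) and *UGT74D1* by −0.27 (SE 0.45), and none of these passed limma's test with or without the block. The smallest of these differences are well under their errors.

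Replicates 1 and 2 could also be compared within a genotype, a difference that the rule did not use. With signals under 100 raised to 100, the 2 *bp er* arrays differed by 1 or more on the log2 scale for 1 of the 31, *AT3G59845* (−1.05, replicate 2 minus replicate 1), against 1.27% of all probe sets kept. In *bp er fil-10* they did so for 1, *AT1G76240* (1.28), against 1.13%. On signals as deposited the counts were 2 of 31 in *bp er*, against 3.16% of all probe sets kept, and 4 of 31 in *bp er fil-10*, against 2.37%. The median of replicate 2 minus replicate 1 over the 31 was −0.13 (*bp er*) and 0.00 (*bp er fil-10*). In *bp er fil-10* both arrays lay under 100 for 6 of the 31, which sets their raised difference to 0.

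Beyond the 31, too, the direction of the genotype difference varied with the replicate 3 shift. Of the 53 other probe sets with a shift of 1 or more in both genotypes, which have no single annotated gene here, 46 were lower on average in *bp er fil-10* (86.8%, median difference −0.60, signals raised to 100 here and in the next sentences). Among the probe sets kept whose smaller shift was 0.75 to under 1, 89 of 103 were lower (86.4%), at 0.5 to under 0.75 it was 216 of 286 (75.5%), at 0.25 to under 0.5 735 of 1018 (72.2%), and at 0 to under 0.25 1549 of 2713 (57.1%). Over all probe sets kept the share was 44.3%. Of the 87 named probe sets with a shift of −1 or less in both genotypes, 20 were lower in *bp er fil-10* (23.0%) and 67 higher. Across the 14456 probe sets kept, the mean of the 2 shifts and the genotype difference correlated at r = −0.37 (Pearson, across probe sets of the same 6 arrays, with no test). The 31 transcripts lie at the upper end of this range of shifts because the rule chose them by it. Their median difference was −0.56, near the −0.60 of the 53 other probe sets.

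**Figure D4:**
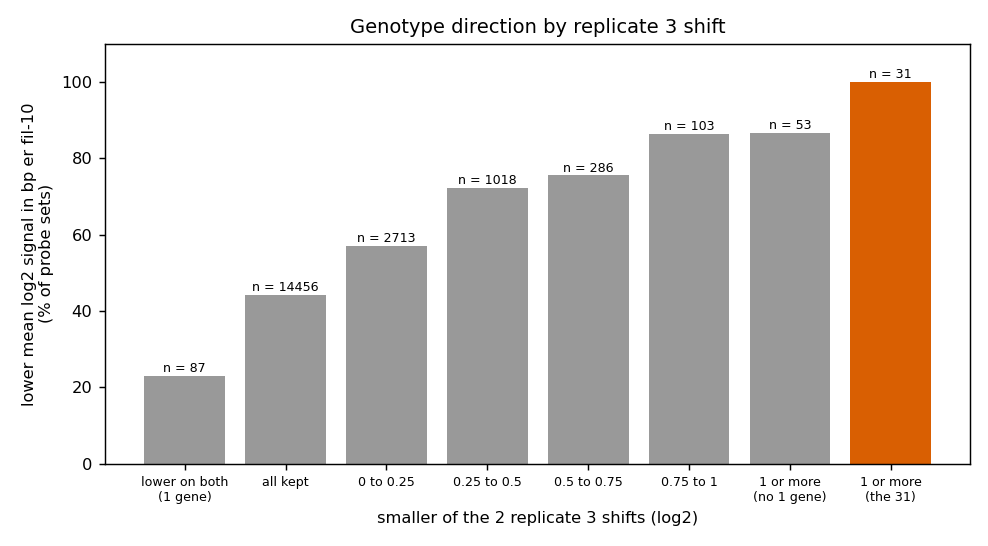
Percent of probe sets lower in *bp er fil-10* than in *bp er* by the mean of log2 signals (signals under 100 raised to 100), by the smaller of the 2 replicate 3 shifts, with the number of probe sets above each bar; the 31 transcripts are orange. The share rises from 57.1% at shifts of 0 to under 0.25 to 86.4% at 0.75 to under 1.

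Marker genes of flower parts were measured beside these transcripts. Of 16 genes of late stamens, petals and nectaries, 5 had a named probe set, *JMT* among them, which the rule chose by its shift. The shifts of the others, *bp er* first, were 0.91 and 0.57 (*TPS11*), 0.52 and 0.09 (*TPS24*), 0.25 and 1.73 (*BSMT1*) and 1.52 and 0.67 (*SWEET9*). The summed signal of the 4 besides *JMT* was 4879, 4350 and 8735 on *bp er* replicates 1, 2 and 3, and in the triple mutant it was 3130, 2770 and 5192. The sum was highest on replicate 3 in each genotype, but 3 of the 4 genes, *SWEET9*, *TPS11* (AT5G44630) and *TPS24* (AT3G25810), are among those the rule left out, and *TPS24* was not highest on replicate 3 in *bp er fil-10* (94.0, 164 and 136). Of 46 genes of late pollen, 11 had a named probe set, and their summed signal was 28943, 27216 and 25902 in *bp er* and 15594, 13313 and 20707 in *bp er fil-10*, highest on replicate 3 in *bp er fil-10* only. For 30 genes of tapetum and pollen wall, 6 with a named probe set, the sums lay between 17116 and 23375, lowest on replicate 3 in *bp er* and highest on it in *bp er fil-10*. No marker of these 3 lists was at 0 on any array. The ratio of the 3′ to the 5′ probe set, often read as a measure of RNA integrity, was 18.0 and 18.5 for actin on the replicate 3 arrays and 14.2 to 22.0 on the others, and for GAPDH 1.80 and 2.20 against 1.78 to 2.70. Actin and GAPDH gave ratios far apart on the same arrays, so the level of RNA integrity was not judged from them. The part of late flower tissue in the shift of the 31 was not tested.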

How the data were processed

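RNA of inflorescences from 3 *bp er* and 3 *bp er fil-10* samples was measured on Affymetrix ATH1 arrays. The deposited signal is an intensity that the authors extracted with GCOS/MAS (version not given in the sources used here) and scaled linearly so that each array's mean, less the outer 2% at either end, was 500. The number of arrays limits the precision. Detection calls were not analysed here.

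Signals were log2-transformed (a lone 0 was set to 0.1). Testing required a probe set to reach 100 on 3 or more of 6 arrays, which left 14456 of 22746, besides 64 controls. limma 3.58.1 in R 4.3.3 (lmFit, eBayes with intensity trend) compared the genotypes, and fits blocked on replicate number, on signals raised to 100, or lacking the replicate 3 arrays were set beside it. The fits were tested on simulated data. Arrays with the same number deviated together from the genotype means, with correlations of 0.103, 0.221 and 0.380, each over 0.1. They were therefore also compared as pairs and in the blocked fits. The main fit, and the SEs given here, have no block. Without the 31 transcripts the first correlation was 0.0969, so this basis for pairing is narrow. The 3 deviations within a genotype also sum to 0. A shift shared by the replicate 3 arrays would therefore by itself make the other correlations positive. No correlations between arrays of different numbers were set beside them. The check thus cannot decide whether arrays of the other replicate numbers belong together.

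Gene names came from the platform annotation and the TAIR10.1 gene table: of 14016 listed probe sets 13513 had 1 gene, 503 several or none, and 77 of the 13513 were not matched to the gene table. Probe sets not listed there stay unnamed. Roles came from these tables or the annotation in the study's gene lists, and clauses on what an enzyme or family does are general background. The values of those lists were not used. The figures with a row per transcript name all 31. The text names most of them, with the 3 just outside the threshold. The transcripts, gene lists and tests were chosen with earlier results of these data known. Tables were made with Python 3.11.15, pandas 2.3.3 and numpy 2.4.6.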

Additional observations from a re-analysis of the deposited data

How the results depend on the processing

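The list held 31 transcripts, 38 with signals raised to 50, 24 with 200, 33 after quantile normalization and 30 against the mean signal of replicates 1 and 2. With 1 replicate 1 or 2 array left out it held 29 to 35. Limma called 1 probe set over all, 18 with signals raised to 100, 0 where all 6 arrays had to reach 100, 540 with the replicate block, 531 with the block on raised signals, 1 to 123 with 1 array left out and 1386 without both replicate 3 arrays. Of the 31 transcripts it called 0, 7 with the replicate block, 5 with the block on raised signals, 0 to 1 with 1 array left out and 7 without both replicate 3 arrays; the cause was not tested. The median difference between the genotypes over the 31 was −0.57, and −1.0 to −0.11 with 1 array left out. All 31 were lower in *bp er fil-10* in the fits that used all 6 arrays or left out both replicate 3 arrays. Of these, 8 were not tested in the fit where all arrays had to reach 100. With 1 array left out 21 to 31 were lower, against 42.5% to 45.3% of all probe sets kept. The transcripts whose difference changed sign, without *bp er* replicate 3 or, for some, without *bp er fil-10* replicate 1 or 2, ranged as follows with 1 array left out: *AT1G76240* from −1.10 to 0.33, *AT1G60590* from −0.85 to 0.18, *AT5G15950* from −0.64 to 0.33, *AT2G41250* from −0.66 to 0.27, *AT4G24700* from −0.85 to 0.43, *GR1* from −0.69 to 0.17, *AT3G21670* from −0.66 to 0.16, *UGT74D1* from −0.74 to 0.086, *AT5G35460* from −0.69 to 0.058 and *WSD1* from −0.75 to 0.11. Leaving out 1 array makes the share of replicate 3 unequal between the genotypes. Detection calls were not analysed here, so whether a signal under 100 lay above background is not known.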
